A study of Homo sapiens with 6 samples.

Results

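The genes described here encode 9 proteins that bind AU-rich elements or act on the same short-lived mRNAs: *ZFP36*, *ZFP36L1*, *ZFP36L2*, *ELAVL1*, *HNRNPD*, *KHSRP*, *TIA1*, *TIAL1* and *ZC3H12A*. They were chosen by symbol from a list that was proposed with results of these libraries already known, so their levels and differences are given as a description, without p-values. All 9 were found among the 26255 genes listed, and all 9 passed the filter of a mean of at least 1 FPKM (fragments scaled by transcript length and library size) that left 12040 genes. The data are 6 mRNA libraries of BxPC-3, a long-established line of human pancreatic cancer cells, with 2 libraries in each of 3 groups. Parent cells received no treatment, NC-1 cells received a negative control, and miR-4711-5p cells received the microRNA whose effects the study examined, with RNA taken at 36 h. All libraries came from this single cell line, and nothing says that the 2 libraries of a group came from separate cultures, so the spread between them may be technical.

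AU-rich elements are stretches of repeated AUUUA in the 3′ UTR (untranslated region) of mRNAs for cytokines, early response factors and growth regulators. Proteins of the ZFP36 family bind them through zinc fingers and recruit the deadenylases and decapping enzymes that destroy the mRNA, and KHSRP and HNRNPD can also promote decay. ELAVL1, also called HuR, binds similar sequences and usually stabilizes them, whereas TIA1 and TIAL1 restrain translation and collect mRNAs in stress granules. ZC3H12A, also called Regnase-1, is an endonuclease that cuts stem-loops in the 3′ UTRs of inflammatory mRNAs, several of which also carry AU-rich elements.

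The mature microRNA is shown first because its seed decides which of the 9 mRNAs hold a matching site. Capitals mark the seed, positions 2 to 8, in the RefSeq sequence (GRCh38.p14, minus strand of chromosome 1).

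hsa-miR-4711-5p: uGCAUCAGgccagaagacaugag

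Sites were searched in annotated transcripts (GENCODE on GRCh37, the same build as hg19) as CTGATGCA (8mer), CTGATGC (7mer-m8) or TGATGCA (7mer-A1) on the transcribed strand. The longest 3′ UTR held 1 such site in 3 of the 9 genes, *ELAVL1*, *HNRNPD* and *TIAL1*. The 30 bases around each site are printed with the match in capitals. All 3 are on the minus strand.

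ELAVL1, 7mer-m8, chr19:8026001-8026030: tatcaattattCTGATGCtgggacaggtga

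HNRNPD, 7mer-m8, chr4:83274003-83274032: tggagttacatCTGATGCtaagaatttgac

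TIAL1, 7mer-A1, chr10:121334153-121334182: catacaatcttTGATGCAttagtatgttct

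The *ELAVL1* site is present in 2 of 4 annotated coding transcripts, the *TIAL1* site in 2 of 4, and the *HNRNPD* site in 1 of 11. None of these 3 mRNAs was called lower with miR-4711-5p, as their values below show. A match of letters is not a measured binding site.

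Some of the 9 mRNAs carry AU-rich letters of their own. The nonamer TTATTTATT, searched on the transcribed strand, was present once in the longest 3′ UTR of *ZFP36*, *ZFP36L1*, *ZFP36L2* and *ELAVL1*, beside 9.65% of the 11189 tested genes with an annotated 3′ UTR. The windows are shown because these mRNAs hold the same element that their proteins bind, with the nonamer in capitals.

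ZFP36, chr19:39899836-39899865, plus strand: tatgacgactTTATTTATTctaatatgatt

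ZFP36L1, chr14:69254793-69254822, minus strand: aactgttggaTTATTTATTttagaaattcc

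ZFP36L2, chr2:43450586-43450615, minus strand: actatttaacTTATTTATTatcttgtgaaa

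ELAVL1, chr19:8026711-8026740, minus strand: atttatgtatTTATTTATTgaagtgtgaaa

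The shorter heptamer TATTTAT was present 3 times each in *ZFP36*, *ZFP36L1* and *ZFP36L2*, 5 times in *ELAVL1*, and once each in *TIA1* and *TIAL1* (overlapping matches counted, those within a nonamer included). *HNRNPD* and *KHSRP* held neither nonamer nor heptamer, and the 766 bases of the *ZC3H12A* 3′ UTR held not even the pentamer ATTTA, which 74.8% of the tested genes have. *TIA1* and *ELAVL1* had 13 pentamers each, in 3′ UTRs of 3275 and 4910 bases.

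Levels per length differed widely among the 9 genes. In parent cells the order of mean FPKM was *HNRNPD* (149), *ZFP36L1* (123), *KHSRP* (83.5), *ZFP36* (38.2), *TIAL1* (29), *ZFP36L2* (20.7), *ZC3H12A* (15.9), *ELAVL1* (15.8) and *TIA1* (9.92). In bulk RNA such as this, fewer cells with an mRNA and less of it per cell cannot be told apart. Among neighbours in this order, only *ZC3H12A* and *ELAVL1* had overlapping libraries. With NC-1 the libraries of *HNRNPD* and *ZFP36L1* overlapped, as did those of *ZFP36L2* and *ELAVL1*. With miR-4711-5p no neighbours overlapped, *ZFP36L1* (161) stood above *HNRNPD* (150.0), and *ZC3H12A* (35.5) had moved from the seventh place to the fifth, above *TIAL1* (31.5). *ZFP36L1* alone made up 67.6% to 71.5% of the summed FPKM of the ZFP36 family in every library.

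**Figure D1:**
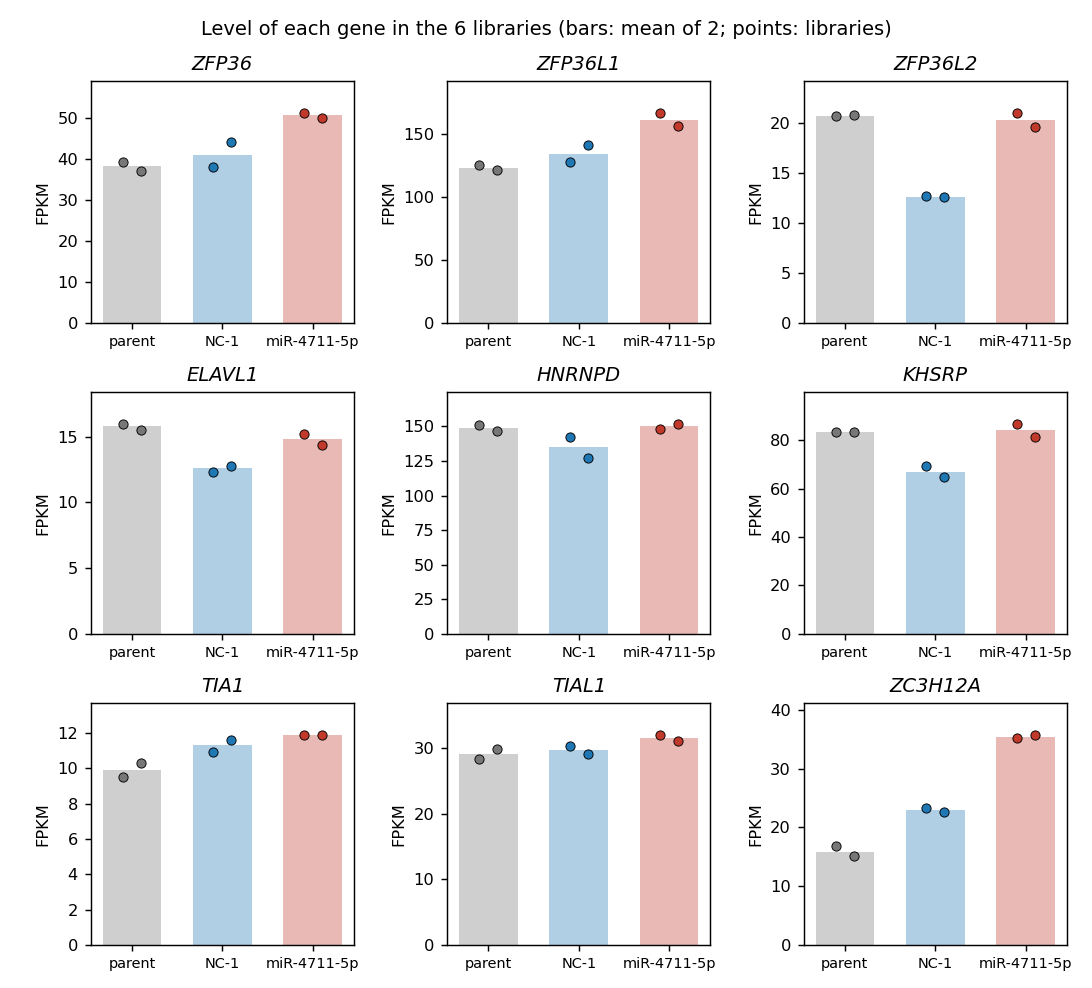
FPKM of the 9 genes (vertical axes from 0, a separate scale for each gene) in parent, NC-1 and miR-4711-5p cells, with a point for each library and a bar for the mean of 2. *ZC3H12A* steps up from parent (15.9) to NC-1 (23.0) to miR-4711-5p (35.5), and *ZFP36L2* is low with NC-1 (12.6) and at 20.7 and 20.3 in the other groups.

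The 3 comparisons were made with limma on log2(FPKM + 1), on which the log2 fold changes below are given with their standard error (SE). Genes with a Benjamini-Hochberg adjusted p under 0.05 over all 12040 genes are said to be called. On this scale the change of a low gene is understated. miR-4711-5p against parent called 4 of the 9 genes, all 4 higher, beside a background of 43.4% of all genes called, 18.7% higher and 24.7% lower. miR-4711-5p against NC-1 called 6 of the 9, all 6 higher, beside 39.6% of all genes called, 18.4% higher and 21.2% lower. NC-1 against parent called 1 higher and 3 lower, beside 27.2% of all genes called, 12.1% higher and 15.1% lower. For the counts of 0 lower with miR-4711-5p, limma also had 0 of the 9 lower at an unadjusted p under 0.05. Scaling the libraries to equal FPKM sums is described further on, with its counts over all genes. It gave 5 higher and 0 lower against parent, and 7 higher and 0 lower against NC-1. For NC-1 against parent it gave 3 higher and 3 lower, where *ZFP36L1* (0.20) and *TIA1* (0.25) were then called higher. The list was proposed from these contrasts, so nothing is read from its counts. The same holds for a call of any of the 9 genes, kept or lost in another setting. The first 2 comparisons share the miR-4711-5p libraries, the last 2 share the NC-1 libraries, and the first and last share the parent libraries. Each is therefore given by its own values.

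**Figure D2:**
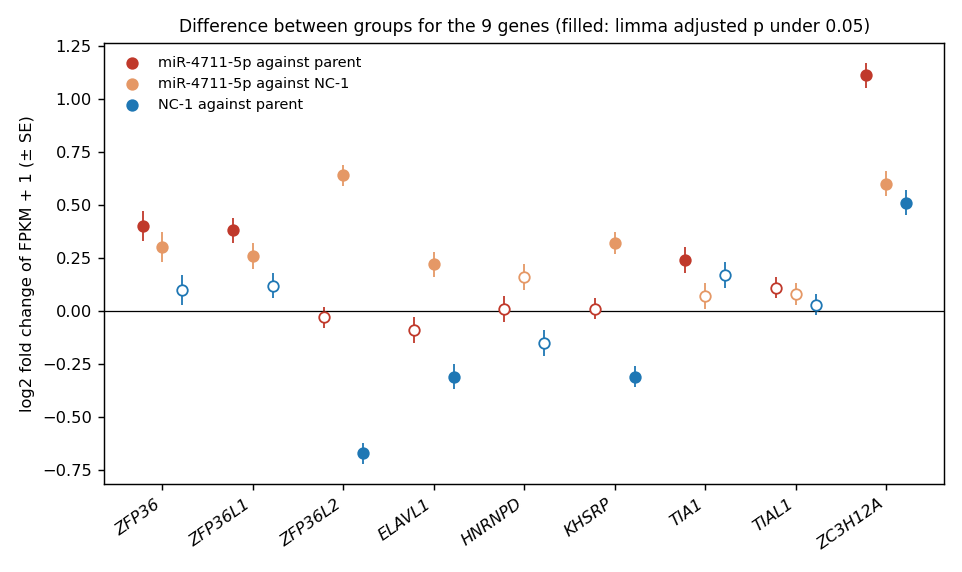
Log2 fold change of FPKM + 1 with its SE for the 9 genes in the 3 comparisons (3 groups of 2 libraries, filled points called by limma at an adjusted p under 0.05). *ZC3H12A* is called above 0 in all 3, and *ZFP36L2*, *ELAVL1* and *KHSRP* are called above 0 against NC-1, below 0 for NC-1 against parent, and lie near 0 for miR-4711-5p against parent.

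*ZC3H12A* (chr1:37940181-37949978, plus strand), the endonuclease, changed most of the 9 against parent. It was at 16.8 and 15.1 FPKM in the parent libraries, 23.3 and 22.7 with NC-1, and 35.2 and 35.8 with miR-4711-5p. The 3 groups did not overlap, and both miR-4711-5p libraries were above every control library. The means were 15.9 ± 1.22, 23.0 ± 0.428 and 35.5 ± 0.434 FPKM (SD, n = 2 each). The ratio of means was 2.23 for miR-4711-5p against parent (log2 fold change 1.11, SE 0.06) and 1.54 against NC-1 (0.60, SE 0.06). NC-1 cells were themselves 1.45 times above parent (0.51, SE 0.06), so part of the difference from parent was also present with the negative control. Of all tested genes, 98.6% had a smaller log2 fold change against parent and 96.7% against NC-1.

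*ZFP36* (chr19:39897487-39900052, plus strand), also called tristetraprolin and the founding member of the decay-promoting family, was at 39.4 and 37 FPKM in parent, 38.1 and 44.2 with NC-1, and 51.4 and 50.1 with miR-4711-5p. The parent and NC-1 libraries overlapped, and both miR-4711-5p libraries lay above all 4 of them. It was 1.33 times as high as in parent (log2 fold change 0.40, SE 0.07) and 1.23 times as high as with NC-1 (0.30, SE 0.07). The call against NC-1 was lost without NC-1 library 1 (0.20) and without either miR-4711-5p library (0.28 and 0.32). Against parent the log2 fold change lay between 0.36 and 0.44 when single libraries were left out.

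*ZFP36L1* (chr14:69254377-69262970, minus strand), the most abundant of the family here, was at 125 and 121 FPKM in parent, 128 and 141 with NC-1, and 167 and 156 with miR-4711-5p. The 3 groups did not overlap. Its ratio of means was 1.31 against parent (log2 fold change 0.38, SE 0.06) and 1.2 against NC-1 (0.26, SE 0.06), and the latter call was lost without NC-1 library 1 (0.19) or miR-4711-5p library 1 (0.22).

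*ZFP36L2* (chr2:43449541-43453745, minus strand), the remaining member of the family, had another pattern. It was at 20.7 and 20.8 FPKM in parent, 12.7 and 12.6 with NC-1, and 21.0 and 19.6 with miR-4711-5p. The miR-4711-5p libraries lay on either side of the parent libraries, and the NC-1 libraries were far below both. NC-1 against parent gave a log2 fold change of -0.67 (SE 0.05, ratio of means 0.610), a value below which only 0.9% of tested genes lay. Against NC-1 the miR-4711-5p value was 0.64 (SE 0.05, ratio 1.60), and against parent it was -0.03 (SE 0.05). The share of *ZFP36L2* in the summed FPKM of the family was 11.1% and 11.6% in parent, 7.10% and 6.39% with NC-1, and 8.76% and 8.68% with miR-4711-5p.

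*KHSRP* (chr19:6413113-6424822, minus strand), which binds AU-rich mRNAs through KH domains and recruits the exosome, followed the same order. It was at 83.5 FPKM in both parent libraries, 69.2 and 64.9 with NC-1, and 86.8 and 81.4 with miR-4711-5p. Parent and miR-4711-5p overlapped (log2 fold change 0.01, SE 0.05), and both were above NC-1. The difference from NC-1 was 0.32 (SE 0.05) with miR-4711-5p, and NC-1 against parent was -0.31 (SE 0.05). The microRNA gene *MIR3940* lies within it on the same strand, and *KHSRP* has 1 annotated pseudogene.

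*ELAVL1* (chr19:8023457-8070543, minus strand), the stabilizing protein of the group and one of the 3 genes with a seed site, was at 16.0 and 15.5 FPKM in parent, 12.3 and 12.8 with NC-1, and 15.2 and 14.4 with miR-4711-5p. The 3 groups did not overlap: parent was highest and NC-1 lowest. It was called lower for NC-1 against parent (log2 fold change -0.31, SE 0.06) and higher for miR-4711-5p against NC-1 (0.22, SE 0.06), and was not called for miR-4711-5p against parent (-0.09, SE 0.06). The call against NC-1 was lost without NC-1 library 1 (0.19) and without miR-4711-5p library 1 (0.18) or 2 (0.26), and that of NC-1 against parent without parent library 1 (-0.29) or NC-1 library 1 (-0.28).

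Base composition moved with the comparison of NC-1 with parent over all genes. Genes with a transcript GC content up to 40% had a median log2 fold change of 0.089, and those over 60% had -0.090. *ZFP36L2* has 54.4% GC, *KHSRP* 58.9%, *ELAVL1* 46.3% and *ZC3H12A* 61.2%. With the GC trend of all genes removed, NC-1 against parent was -0.63 for *ZFP36L2*, -0.26 for *KHSRP*, -0.31 for *ELAVL1* and 0.58 for *ZC3H12A*. The part of GC content in these values was not tested.

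*HNRNPD* (chr4:83273651-83295656, minus strand), also called AUF1, whose isoforms can promote decay or stability, was the highest of the 9 in parent. It was at 151 and 147 FPKM in parent, 142 and 127 with NC-1, and 148 and 152 with miR-4711-5p. Parent and miR-4711-5p overlapped. It was not called in any of the 3 comparisons, with log2 fold changes of 0.01 (SE 0.06) against parent, 0.16 (SE 0.06) against NC-1 and -0.15 (SE 0.06) for NC-1 against parent. After scaling to equal sums it was called higher against NC-1 (0.21). It has 2 annotated pseudogenes, with which reads can be shared.

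*TIA1* (chr2:70436576-70475792, minus strand), a translational silencer of AU-rich mRNAs, was at 9.52 and 10.3 FPKM in parent, 10.9 and 11.6 with NC-1, and 11.9 in both miR-4711-5p libraries. The groups did not overlap. It was called higher against parent (log2 fold change 0.24, SE 0.06) and not against NC-1 (0.07, SE 0.06), nor was NC-1 called against parent (0.17, SE 0.06). The call against parent was lost without parent library 1 (0.19) and without either miR-4711-5p library (0.24 each). *C2orf42* overlaps it on the same strand, so part of its reads may be shared.

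*TIAL1* (chr10:121331314-121356541, minus strand), its close relative, was at 28.3 and 29.8 FPKM in parent, 30.3 and 29 with NC-1, and 32.0 and 31.0 with miR-4711-5p. The miR-4711-5p libraries were the highest, and the parent and NC-1 libraries overlapped. It was not called in any comparison (0.11, SE 0.05 against parent, 0.08, SE 0.05 against NC-1, and 0.03, SE 0.05 for NC-1 against parent), but was called higher against parent after scaling to equal sums (0.25).

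The balance between decay factors and the stabilizing *ELAVL1* can be given as a ratio of FPKM within each library. The summed ZFP36 family over *ELAVL1* was 11.6 and 11.5 in parent, 14.5 and 15.4 with NC-1, and 15.7 in both miR-4711-5p libraries. The family sum itself was 186 and 179 FPKM in parent, 178 and 198 with NC-1, and 239 and 226 with miR-4711-5p. It thus overlapped between parent and NC-1, whereas *ELAVL1* was lower with NC-1 (12.3 and 12.8) than in parent (16.0 and 15.5). *ZC3H12A* over *ELAVL1* was 1.05 and 0.969 in parent, 1.90 and 1.77 with NC-1, and 2.32 and 2.49 with miR-4711-5p. Parent libraries were thus lowest in both ratios, and the 3 groups did not overlap in either. Only mRNA was measured, so these ratios say nothing of protein or of its phosphorylation, by which ZFP36 activity is known to be set.

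Profiles over the 6 libraries were compared with those of 8873 genes by Euclidean distance on log2(FPKM + 1) centred on each gene's mean, for the 3 genes with the widest range of group means. The closest to *ZC3H12A* were *PLK2* (distance 0.0939) and *ATP11A* (0.0944). *PLK2* was at 40.4 and 36.4 FPKM in parent, 53.1 and 50.5 with NC-1, and 80.2 and 79.9 with miR-4711-5p. Closest to *ZFP36L2* were *SLC6A8* (0.104) and *BZW1* (0.115), and *SLC6A8* went from 36.1 and 33.6 FPKM in parent to 20.3 and 20.9 with NC-1 and 34.4 and 32.7 with miR-4711-5p. Closest to *ZFP36* were *CROCCP2* (0.0375) and *LGALS3BP* (0.0700).

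The machinery around these proteins was counted from lists chosen with earlier results of these data known, without a set test. Each count is a description. Those outside brackets are to be read beside the background shares given above. Except where a list had none, the genes named from each list were picked among those called against both NC-1 and parent. Their small adjusted p-values follow from that rule and are a description too. Scaling also matters for the counts. The deposited FPKM have almost equal median-of-ratios factors, while their sums fell from 550772 and 543074 in parent to 515688 and 515348 with NC-1 and to 493145 and 499659 with miR-4711-5p. Scaling to equal sums moves the median log2 fold change of all genes against parent from -0.013 to 0.108 and the share of calls that are higher from 43.1% to 69.3%. Against NC-1 that share moves from 46.5% to 58.4%, and for NC-1 against parent from 44.4% to 69.9%. Counts in brackets below are those after scaling to equal sums and have another background. After this scaling, 4010 of all 12040 genes were higher and 1776 lower against parent. Against NC-1 they were 2923 and 2083, and for NC-1 against parent 2327 and 1000. Over all listed genes, the 9 left out, 150 of 168 were tested. Of these, 51 were higher and 28 lower against parent (77 and 13), and 54 higher and 24 lower against NC-1 (63 and 17). For NC-1 against parent, 34 were higher and 30 lower (45 and 17). Leaving out any library also lowered the calls over all genes in each comparison. A fall in a list's count without a library is therefore not particular to that list.

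Of 10 paralogs of the 9 proteins, 5 were tested, and 2 were higher and 1 lower against both parent (3 and 0) and NC-1 (2 and 1). *HNRNPDL*, the paralog of *HNRNPD*, was at 49.8 and 52.0 FPKM in parent, 47.8 and 44 with NC-1, and 58.6 and 58.8 with miR-4711-5p. It rose against NC-1 (log2 fold change 0.35, SE 0.05, limma adjusted p = 0.00229) and against parent (0.20, SE 0.05, limma adjusted p = 0.0203), the latter call lost without parent library 1 (0.17) or either miR-4711-5p library (0.20 each). *FUBP3*, a relative of *KHSRP*, was lower against NC-1 (-0.21, SE 0.04, limma adjusted p = 0.00695) and against parent (-0.21), the latter not called after scaling to equal sums (-0.07). Of 18 other RNA-binding proteins of mRNA stability, 17 were tested, and 3 were higher and 1 lower against NC-1 (4 and 1), and 2 higher and 4 lower against parent (8 and 2). The 4 calls against NC-1 became 1 without miR-4711-5p library 1 and 2 without miR-4711-5p library 2 or NC-1 library 1. *HNRNPA1* was lower in both (-0.26 each, SE 0.04), with 405 and 410 FPKM with miR-4711-5p against 476 to 500 in the 4 control libraries.

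All 17 deadenylases and adaptors were tested, and 4 were higher and 6 lower against NC-1 (4 and 3), and 2 higher and 6 lower against parent (5 and 2). The 10 calls against NC-1 became 4 without miR-4711-5p library 1, 5 without library 2 and 6 without NC-1 library 1, and the 8 against parent became 2 and 5 without miR-4711-5p library 1 and 2. *BTG2*, an antiproliferative adaptor that brings deadenylases to mRNAs, was at 9.01 and 9.77 FPKM in parent, 12.3 and 12.0 with NC-1, and 5.72 and 6.17 with miR-4711-5p. It fell to 0.490 times its NC-1 mean (log2 fold change -0.92, SE 0.07, limma adjusted p = 7.8e-05) and to 0.634 times its parent mean (-0.58, limma adjusted p = 0.000555). Its relative *BTG1* rose against NC-1 (0.38, SE 0.08, limma adjusted p = 0.00783), a call lost without miR-4711-5p library 1 (0.33). The catalytic subunits *CNOT8* and *CNOT7* were lower against NC-1 (-0.45 and -0.20), and *CNOT7* was not called after scaling to equal sums (-0.14), nor without NC-1 library 1 (-0.18) or 2 (-0.22) or miR-4711-5p library 1 (-0.21) or 2 (-0.18).

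Among 15 decapping and 5′ to 3′ decay genes, 3 were higher and 1 lower against NC-1 (5 and 1), and 4 higher and 3 lower against parent (6 and 2). The 4 calls against NC-1 became 1 without miR-4711-5p library 1 and 2 without NC-1 library 2, and the 7 against parent became 4 without miR-4711-5p library 1. *LSM7*, the highest by mean of this list, was at 102 and 83.8 FPKM in parent, 62.4 and 73.7 with NC-1, and 98.7 and 92.2 with miR-4711-5p, and rose against NC-1 (0.49, SE 0.11, limma adjusted p = 0.0105), a call lost without NC-1 library 1 (0.37) or miR-4711-5p library 1 (0.44). Against parent it was not called (0.05, SE 0.11). Of 15 exosome and Ski genes, 4 were higher and 1 lower against NC-1 (8 and 1), 2 higher and 3 lower against parent (3 and 1), and 0 higher and 7 lower for NC-1 against parent (0 and 5), where limma had 0 higher at an unadjusted p under 0.05 too. The 5 exosome and Ski calls against parent became 2 without parent library 1 or either miR-4711-5p library, and the 7 for NC-1 against parent became 3 without NC-1 library 1 and 4 without NC-1 library 2 or either parent library. *EXOSC9* (0.40, SE 0.06) and the nuclease *DIS3* (0.36, SE 0.06) rose against NC-1, with limma adjusted p = 0.0025 and 0.00242.

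The p38-MK2 pathway phosphorylates ZFP36, which then binds 14-3-3 proteins and is held inactive. Of its 16 listed genes 15 were tested, and 7 were higher and 3 lower against NC-1 (7 and 1), 3 higher and 6 lower against parent (6 and 4), and 0 higher and 7 lower for NC-1 against parent (1 and 3), with 1 higher at an unadjusted p under 0.05 in limma. The 10 calls against NC-1 became 6 without NC-1 library 2 or miR-4711-5p library 1 and 5 without miR-4711-5p library 2. The 7 for NC-1 against parent became 3 without parent library 1 or NC-1 library 1, and 4 without parent library 2 or either miR-4711-5p library. *DUSP1*, the phosphatase that switches p38 off and whose own mRNA holds 2 nonamers, rose from 6.96 and 6.08 FPKM in parent and 6.55 and 7.08 with NC-1 to 10.6 and 11.9 with miR-4711-5p (log2 fold change against NC-1 0.65, SE 0.09, limma adjusted p = 0.00117). *PPP2CB*, a catalytic subunit of the phosphatase that reactivates ZFP36, rose against NC-1 (0.37, SE 0.05, limma adjusted p = 0.00104). The kinase *MAPK11* also rose (0.29, limma adjusted p = 0.0196), and *YWHAZ*, a 14-3-3 protein, fell (-0.30, limma adjusted p = 0.0029). Against parent *YWHAZ* was at -0.15, and at -0.01 and not called after scaling to equal sums. With that scaling it was called higher for NC-1 against parent (0.23). The *MAPK11* call was lost without NC-1 library 1 (0.31) or 2 (0.28) or miR-4711-5p library 1 (0.23).

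Among 8 partners and regulators of ZC3H12A, 3 were higher and 1 lower against NC-1 (3 and 1), and 3 higher and 0 lower against parent (5 and 0), with 0 lower in limma at an unadjusted p under 0.05. The 3 calls against parent became 1 without parent library 1 or either miR-4711-5p library, and the 4 against NC-1 became 2 without miR-4711-5p library 1. *TBK1*, a kinase of innate immune signalling, rose from 18.4 and 20.8 FPKM in parent and 22.4 and 22.3 with NC-1 to 29.1 and 27.7 (0.33 against NC-1, SE 0.07, limma adjusted p = 0.00706), a call lost without miR-4711-5p library 1 (0.30). *IKBKB*, which phosphorylates ZC3H12A for degradation, rose by less (0.22, SE 0.06, limma adjusted p = 0.0301), and was not called without NC-1 library 1 (0.21) or 2 (0.23) or miR-4711-5p library 1 (0.19) or 2 (0.24). Of 13 stress granule genes, all tested, 3 were higher and 3 lower against NC-1 (3 and 1), and 4 higher and 3 lower against parent (6 and 1). These 7 calls against parent became 2 without either miR-4711-5p library and 4 without either parent library, and the 6 against NC-1 became 3 without either miR-4711-5p library. *FXR2* (0.37) and *EIF4G1* (0.28) were higher and *PABPC1* (-0.23) and *G3BP2* (-0.18) lower against NC-1, and *G3BP2* was not called after scaling to equal sums (-0.13), nor without NC-1 library 2 (-0.16) or miR-4711-5p library 1 (-0.20) or 2 (-0.16).

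The mRNAs that such proteins act on were listed from textbook knowledge as carrying AU-rich elements, with earlier results of these data known. Their counts are therefore a description only. Of 46, 41 were tested, and 27 were higher and 2 lower against parent (median log2 fold change 0.51, against -0.013 over all genes). Against NC-1, 24 were higher and 7 lower (median 0.27, against 0.004), and for NC-1 against parent 22 were higher and 2 lower (median 0.26, against -0.010). After scaling to equal sums the counts were 32 and 1, 25 and 7, and 24 and 0. Listing did not require a motif in the annotated sequence. In their longest 3′ UTRs, *IER2* and *PLAUR* held no pentamer, and *CXCL10*, *EGR1* and *MAP3K8* held 1 and no heptamer. Each of these was called higher against both parent and NC-1.

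**Figure D3:**
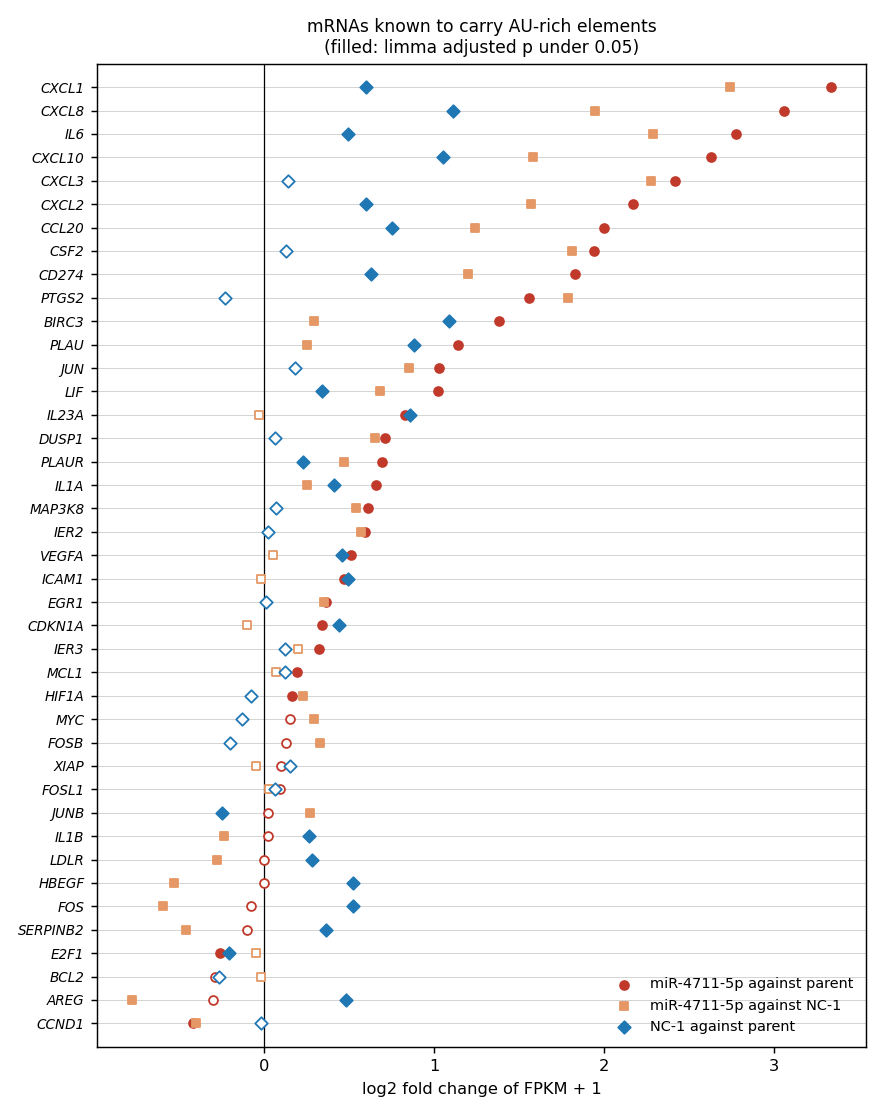
Log2 fold change of FPKM + 1 (horizontal axis) of the 41 tested mRNAs listed as carrying AU-rich elements, ordered by miR-4711-5p against parent, in the 3 comparisons (filled symbols called by limma at an adjusted p under 0.05). *CXCL1* is at 3.34 against parent and 2.74 against NC-1, and *CCND1*, at the other end, is at -0.42 and -0.40.

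By the rule for named genes, *CXCL1*, *IL6*, *CXCL3* and *CXCL8* lead this list, all secreted cytokines that attract or activate leukocytes. Being called was part of that rule, so their adjusted p-values are given as a description. *CXCL1* was at 7.96 and 8.83 FPKM in parent, 12.3 and 14.2 with NC-1, and 89.3 and 99.4 with miR-4711-5p, and rose against NC-1 by a log2 fold change of 2.74 (SE 0.09, limma adjusted p = 3.75e-06). *IL6* was close to 0 in the controls (0.0612 and 0.280 in parent, 0.571 and 0.714 with NC-1) and at 6.83 and 7.20 with miR-4711-5p (2.29, SE 0.13, limma adjusted p = 2.83e-05). Both stood above every control library by a wide margin.

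*CXCL3* rose from 1.64 and 1.74 FPKM in parent and 2.10 and 1.84 with NC-1 to 13.1 and 13.7 (log2 fold change against NC-1 2.28, SE 0.08, limma adjusted p = 5.74e-06). *CXCL8* rose from 5.24 and 8.75 in parent and 15.3 and 16.4 with NC-1 to 60.3 and 67.9 (1.95, SE 0.18, limma adjusted p = 0.00026). For *CXCL8*, NC-1 was itself above parent by 1.11 (SE 0.18, limma adjusted p = 0.00649), whereas *CXCL3* did not pass that test (0.14, SE 0.08). *CXCL1*, *CXCL2* and *CXCL3* are closely related in sequence, and reads may have been split between them.

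The ZC3H12A targets known from textbooks, also listed with earlier results known, overlap this list in 5 genes. Of 16, 10 were tested, and 8 were higher against parent (median 1.36) and 7 against NC-1 (median 1.26), with 0 lower in limma in both, also at an unadjusted p under 0.05. NC-1 against parent had 3 higher and 0 lower (median 0.14), with 1 lower at an unadjusted p under 0.05, and these 3 calls became 1 without parent library 1 or either NC-1 library. *PTGS2*, the inducible cyclooxygenase, was at 21.3 and 24.1 FPKM in parent, 18.0 and 20.3 with NC-1, and 68.9 and 68.0 with miR-4711-5p (log2 fold change against NC-1 1.79, SE 0.08, limma adjusted p = 9.43e-06). Its control groups did not overlap either, with parent above NC-1.

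The element itself can be seen in the 3′ UTRs of these leading mRNAs, printed because they rose while *ZFP36*, *ZFP36L1* and *ZC3H12A*, whose proteins act on such mRNAs, were also higher. Capitals mark the nonamer TTATTTATT, and the first nonamer of each 3′ UTR is shown (GRCh37).

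CXCL1, chr4:74736391-74736420, plus strand: agtcttctatTTATTTATTtattcattagt

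CXCL3, chr4:74902489-74902518, minus strand: atgtcagttgTTATTTATTcaaattatctc

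CXCL8, chr4:74608381-74608410, plus strand: atgtaaagtaTTATTTATTtgaatctacaa

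PTGS2, chr1:186643448-186643477, minus strand: atgatcatatTTATTTATTtatatgaacca

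*CXCL1* holds 3 nonamers in 772 bases, and *CXCL3*, *CXCL8* and *PTGS2* hold 1 each, the last with 22 pentamers in 2562 bases. *IL6* holds 6 pentamers and 3 heptamers and none of this nonamer in its 429 bases. Within the list of 46, 23 mRNAs had a nonamer and 23 did not. Against NC-1, 11 of 20 tested with a nonamer and 13 of 21 without were higher, and the medians were 0.26 and 0.27. Against parent, 14 of 20 and 13 of 21 were higher, with medians of 0.77 and 0.36. Having the nonamer therefore went with a larger median against parent and not against NC-1 in these small groups, for which no test was made.

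Over all genes the same split was made as a description. Of 1080 tested genes with a nonamer, 23.7% were called higher and 16.5% lower against parent, beside 18.2% and 27.0% of the 10109 without. Their median log2 fold changes were 0.046 and -0.028. For NC-1 against parent the shares were 19.1% higher and 7.59% lower with the nonamer, and 11.6% and 16.7% without, with medians of 0.077 and -0.022. Against NC-1 the shares were 16.7% and 19.6% with, and 19.1% and 22.4% without, with medians of -0.011 and 0.002. Both comparisons with parent rest on the same parent libraries, so their splits are not separate observations. Library by library, the median of nonamer genes less that of the others, against the mean of parent, was 0.098 and 0.097 in the NC-1 libraries and 0.086 and 0.069 in the miR-4711-5p libraries, and -0.015 and 0.015 in the parent libraries themselves.

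**Figure D4:**
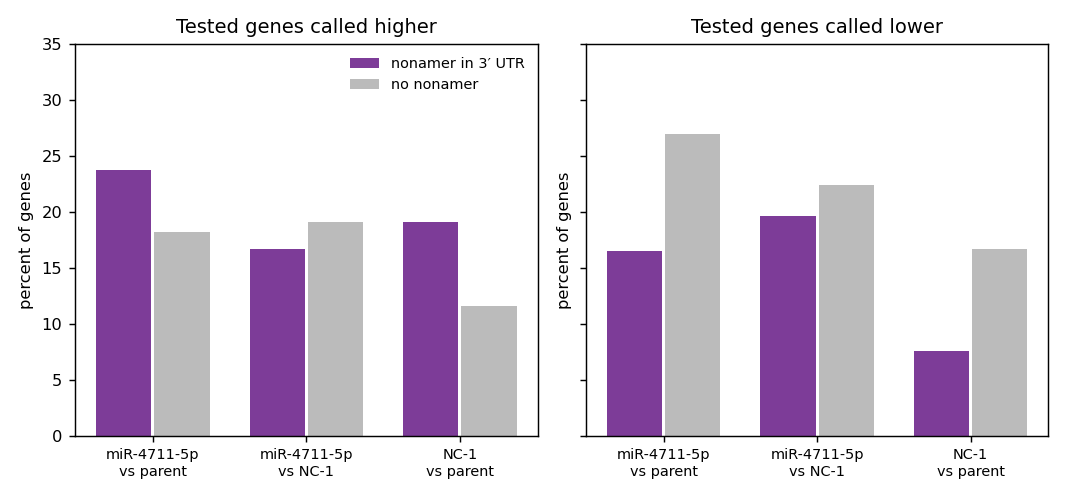
Percent of tested genes called higher (left) and lower (right) by limma in each comparison, for the 1080 genes with the nonamer in their longest 3′ UTR and the 10109 without (bars from 0, no error bars because genes are not replicates). For NC-1 against parent 19.1% with and 11.6% without the nonamer are called higher, and against NC-1 the 2 bars are closer, at 16.7% and 19.1%.

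Genes with a nonamer had a median 3′ UTR of 3145 bases against 1357 without, and length and GC content moved with the split. Among the shortest 3′ UTRs (up to 866 bases, 1 of 3 bins of equal size), 33.3% of 102 nonamer genes passed as higher against parent and 32.4% did so against NC-1, beside 14.2% and 21.4% of the 3633 others. Among the longest (over 2327 bases), 20.4% of 705 were higher against parent, beside 21.1% of the 3025 others. Against NC-1, 22.3% of 273 nonamer genes with 3′ UTRs of middle length were higher beside 19.7% of the others, and 12.2% with the longest beside 15.6%. The shortest 3′ UTRs include those of *CXCL1*, *CXCL3* and *DUSP1*. The part of length and GC content in the split was not tested.

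Facts of the libraries bear on these values. Between 16597 and 16808 genes were above 0 in the control libraries, and 17146 and 17305 with miR-4711-5p. Since FPKM keeps no read counts, depth is unknown in reads, and the steps between low values give a depth relative to parent library 1 of 0.753 to 0.871 in the other controls and 1.08 and 1.21 with miR-4711-5p. The 5 ductal epithelial keratin and adhesion markers summed to 5138 to 6133 FPKM. Within them *KRT19* was lower with miR-4711-5p (log2 fold change -0.85 against parent and -0.50 against NC-1, limma adjusted p = 2.58e-05 and 0.000337) and *KRT18* higher (0.19 and 0.33, limma adjusted p = 0.0138 and 0.00172), and their part in the results was not tested. Leukocyte markers summed to 0.210 to 0.899 with 1 of 5 at 0 throughout, fibroblast markers to 1.30 to 2.44, and acinar and islet markers to 0.730 to 5.10 with 4 of 6 at 0 throughout, the last highest with miR-4711-5p (3.18 and 5.10). Endothelial markers summed to 1.39 and 1.33 in parent, 3.53 and 3.23 with NC-1, and 0.775 and 0.649 with miR-4711-5p. In the same order, *CDH5* alone was at 0.995 and 0.929, 3.16 and 2.88, and 0.612 and 0.469. *VWF* was instead lower with NC-1 (0.176 and 0.203) than in parent (0.279 and 0.319), and *PECAM1* was at 0.188 or less throughout. Nearly all of the acinar and islet sum was *PRSS1*. The part of these markers in the results was not tested.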

How the data were processed

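RNA-seq libraries of BxPC-3 cells (2 each of parent, NC-1 and miR-4711-5p) were analysed from the deposited FPKM per gene symbol. The authors made stranded mRNA libraries, mapped single-end reads to hg19 and calculated FPKM, which divides by gene length and library size. The submitters' processing notes name TopHat2 2.1.1, Bowtie2 2.3.5.1, SAMtools 1.2, Cuffdiff and Cufflinks 2.2.1. The study's methods give other versions of the first 3 and name Cuffnorm, so the sources differ on how the FPKM were made. Whether counting used strand and which annotation was used are not given in the sources used here, so overlapping genes may share reads. The time of 36 h is from the study's text.

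From the FPKM, limma 3.58.1 in R 4.3.3 (lmFit, contrasts.fit, eBayes with a trend) was fitted on log2(FPKM + 1) to 12040 genes (mean FPKM of 1 or more), with all 3 groups in 1 fit (3 residual and 4.15 prior degrees of freedom). Tests were two-sided with Benjamini-Hochberg adjustment over all genes. An exact permutation test of 2 against 2 libraries cannot go below p = 0.333 and was not used. Count models were not applied, since reads per gene are not in the FPKM. The p-values measure the spread between these libraries. Tables and figures were made with Python 3.11.15, pandas 2.3.3 and matplotlib 3.10.9, and simulated data were used to test the limma fit.

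Gene symbols were looked up among protein-coding transcripts (GENCODE v44, lifted to GRCh37: 10599 by the same symbol, 596 by an older one, 845 not matched). Motifs were counted in each gene's longest 3′ UTR. The microRNA is from RefSeq.

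The 9 genes and all lists were chosen with earlier results of these data known. Named from each other list were up to 4 genes with the largest absolute log2 fold change against NC-1 among those called in the same direction against NC-1 and parent, or the highest gene by mean FPKM where a list had none. Settings tried were the pseudocount, the filter, the scaling, the trend, the groups in the fit, a fold minimum, the replicate block, leaving out each library, the canonical transcript, the motif and 3′ UTR length. Removing the GC trend and scaling to equal library sums were chosen after seeing the data.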

Additional observations from a re-analysis of the deposited data

How the results depend on the processing

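Among the 9 genes, requiring a fold of at least 1.5 beside the adjusted p left 1 call for miR-4711-5p against parent, 2 against NC-1 and 1 for NC-1 against parent. Over all 12040 genes it left 1112, 976 and 298 calls in place of 5230, 4763 and 3279. Over all listed genes, which here and below leave out the 9, it left 22, 20 and 12 calls in place of 79, 78 and 64. For mRNAs listed as carrying AU-rich elements it left 15 calls against NC-1 and 9 for NC-1 against parent, in place of 31 and 24. By construction the fold minimum removes small changes. Leaving out any library lowered the calls over all genes too, in each comparison, so the falls given next are not particular to these genes. Leaving out each library in turn gave 3 to 6 calls among the 9 genes against NC-1 (3 without miR-4711-5p library 1), and over all listed genes 50 to 84 calls against parent (50 without miR-4711-5p library 1), 49 to 79 against NC-1 (49 without miR-4711-5p library 1, 50 without library 2) and 36 to 51 for NC-1 against parent (36 without parent library 1, 38 without NC-1 library 1), where the lone library is taken to vary like the other groups. Values near 0 changed sign: *ZFP36L2* against parent lay between -0.08 and 0.01, *HNRNPD* against parent between -0.01 and 0.03, and *KHSRP* against parent between -0.04 and 0.05 when single libraries were left out. Scaling to equal sums, chosen after seeing the data, turned *ZFP36L2* (0.10) and *ELAVL1* (0.05) against parent, and removing the GC trend turned *ZFP36L2* against parent (0.02) and *TIAL1* for NC-1 against parent (-0.04), none of them called. With the GC trend removed the 9 genes had 4, 8 and 5 calls, beside 5689, 5383 and 3653 of the 11195 genes in that fit. There *HNRNPD* (0.19) and *TIAL1* (0.12) passed against NC-1 and *HNRNPD* for NC-1 against parent (-0.18). Scaling to equal sums gave 5, 7 and 6 calls among the 9 genes, beside 5786, 5006 and 3327 of all 12040. Without a filter beyond a value above 0, the ZC3H12A targets had 1 call for NC-1 against parent in place of 3, beside 2165 of 19158 genes.

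The median of nonamer genes less that of the others depended on 3′ UTR length and GC. Against parent it was 0.164 for the shortest of 3 bins of length, 0.032 for the longest and 0.053 with the GC trend removed. Against NC-1 it was 0.046 for the shortest and 0.052 for the middle bin, both turned in sign, -0.001 with the GC trend removed, -0.027 for the heptamer and -0.035 for the pentamer. For NC-1 against parent it was 0.134, 0.042 and 0.040 for the shortest, middle and longest bin, 0.061 with the GC trend removed, 0.091 with equal sums, 0.105 for the heptamer and 0.107 for the pentamer. The cause was not tested.

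Libraries with the same replicate number did not deviate together (correlations of deviations 0.061, 0.00301 and -0.00892 over the 12040 genes). With 2 libraries a group, this check cannot exclude a shared culture or day. With the replicate block, 4, 6 and 4 of the 9 genes were called, as without it, and 78, 76 and 59 of the listed genes. Over all 12040 genes the block gave 4983, 4564 and 2864 calls. Depth in reads is unknown, and 2 libraries a group limit the precision.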
